A study of Mus musculus with 6 samples.

Results

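The glutathione S-transferases considered here are Gsta2, Gsta3, Gsta4, Gstm1, Gstm2, Gstm3, Gstp1, Gstt1, Gstt2 and Gstk1, 10 genes out of 22086 tested. They were chosen by name, with earlier results of these data known. A transcript cluster, the array's unit of about 1 gene, belongs to a member when the platform annotation gives it that symbol alone. Each of the 10 had 1 such cluster, all 10 passed the filter on low values, and none shared identical values with another gene. Metformin, a biguanide drug used in diabetes, was injected into the peritoneum of 3 female Pkd1 miR transgenic mice at 150 mg/kg/day, and 3 female mice of the same transgenic line were injected with saline. Injections ran over postnatal days 35 to 63, and RNA of the whole kidney was measured at day 63 with 1 array per mouse. Both groups carry the transgene, a model of polycystic kidney disease directed against Pkd1, so no kidney without it enters the comparison, and the sources used here do not name the promoter that drives it. The samples are labelled biological replicates. The labels do not say what a replicate number shares between the groups. Pairs of replicate numbers, and fits with the number as a block, rest on a pairing inferred from these same expression values.

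Glutathione S-transferases join the tripeptide glutathione to electrophilic drugs, toxins and products of lipid peroxidation. The conjugates are exported, trimmed by peptidases and acetylated to mercapturates, a route in which the kidney has a large share. The soluble enzymes form classes by sequence: alpha, mu, pi and theta in the cytosol and kappa in mitochondria and peroxisomes. Alpha-class protein is a known marker of proximal tubule cells and pi-class protein, in human kidney, of distal tubule cells. Many of the genes respond to the transcription factor NRF2, which binds antioxidant response elements.

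Kidney markers were present in both groups. The phosphate transporter Slc34a1 averaged 18.35 ± 0.18 on metformin arrays and 18.64 ± 0.049 on saline arrays, and the thick limb protein Umod 18.84 ± 0.13 on metformin arrays and 18.98 ± 0.11 on saline arrays (log2 units, SD, n = 3 each). Array medians lay between 4.73 and 4.86 on metformin arrays and between 4.67 and 4.74 on saline arrays. Upper quartiles did not overlap, at 7.21 to 7.34 on metformin arrays and 7.01 to 7.12 on saline arrays. All values below are log2 expression as deposited, a change is metformin minus saline with the standard error (SE) of the limma fit, and adjusted p is limma's, over all 22086 genes.

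Promoter windows of 300 bases, 250 before and 50 from the transcript start, were found in the RefSeq table (GRCm38.p6) for 8 members, Gstm1 with a pair of overlapping windows. The windows were searched on both strands for TGACNNNGC, the core of the antioxidant response element, for the related TGAGNNNGC, and for GTTAAT, a partial site of HNF1, a regulator of proximal tubule genes. Gsta3 held TGACNNNGC at -121 and, on the opposite strand, GTTAAT at -149, counted from the start base as 0. Gstp1 held TGAGNNNGC at -74 and on the opposite strand at -9, and Gstt1 held it at -89. The other 5 members, Gstk1 among them, held none of these 3 motifs in their windows, which says nothing of a factor's binding. Of all 32851 windows in the table, 12.4% held TGACNNNGC, 17.6% TGAGNNNGC and 7.10% GTTAAT. Of the members' 9 windows, 1, 2 and 1 did, in that order. The CCAAT box, a common promoter element also searched, was in 7 of the 9 windows (6 of the 8 genes: Gsta2, Gsta3, Gstm1, Gstm2, Gstt1 and Gstk1) and in 37.4% of all windows, and no test was made of the difference. Shown are the 3 windows with a match, with the match in capitals, and that of Gstk1, the member with the greatest change. They lie at chr1:21240335-21240634 (plus strand) for Gsta3, chr19:4037863-4038162 (minus strand) for Gstp1, chr10:75797682-75797981 (minus strand) for Gstt1 and chr6:42245685-42245984 (plus strand) for Gstk1, each written 5′ to 3′ along the gene.
Gsta3: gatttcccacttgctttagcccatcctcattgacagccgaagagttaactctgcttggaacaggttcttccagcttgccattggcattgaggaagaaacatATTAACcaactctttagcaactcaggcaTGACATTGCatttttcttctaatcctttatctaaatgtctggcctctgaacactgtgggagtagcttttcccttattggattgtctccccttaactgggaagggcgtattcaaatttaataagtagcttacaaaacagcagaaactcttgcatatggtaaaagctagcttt
Gstp1: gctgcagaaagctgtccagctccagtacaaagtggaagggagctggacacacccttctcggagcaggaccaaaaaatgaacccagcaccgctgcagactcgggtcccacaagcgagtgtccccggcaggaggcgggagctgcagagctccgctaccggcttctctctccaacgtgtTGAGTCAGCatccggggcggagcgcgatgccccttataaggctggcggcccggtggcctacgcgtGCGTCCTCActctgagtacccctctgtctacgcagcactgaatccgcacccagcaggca
Gstt1: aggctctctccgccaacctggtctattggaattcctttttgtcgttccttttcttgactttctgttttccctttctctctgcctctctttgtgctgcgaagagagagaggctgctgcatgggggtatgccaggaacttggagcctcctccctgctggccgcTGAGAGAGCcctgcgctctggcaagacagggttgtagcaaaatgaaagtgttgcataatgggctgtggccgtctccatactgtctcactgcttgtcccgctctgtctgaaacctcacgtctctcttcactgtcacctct
Gstk1: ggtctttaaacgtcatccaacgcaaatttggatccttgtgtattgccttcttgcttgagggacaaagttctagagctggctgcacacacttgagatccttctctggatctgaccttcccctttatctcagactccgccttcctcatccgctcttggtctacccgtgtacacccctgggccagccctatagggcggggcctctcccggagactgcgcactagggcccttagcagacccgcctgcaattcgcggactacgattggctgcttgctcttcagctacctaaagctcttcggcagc

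All 10 members were lower in the kidneys of metformin-treated mice, by 1.51-fold to 3.02-fold, and all 10 passed the adjusted threshold. Among all 22086 genes, 15.8% passed in either direction, 9.08% as lower in metformin and 6.71% as higher. The members were chosen with earlier results of these data known, so their count is not an unbiased sample of the family. Of 18 other transferases and MAPEG enzymes tested, 5 passed. For each of the 10, every metformin array lay below every saline array. Complete separation was seen in 37.3% of all genes, in 19.4% with metformin below and in 17.8% with metformin above. The median change of the members was -0.79, and that of all genes 0.02. In bulk tissue fewer cells of a type and less RNA per cell cannot be told apart. Higher in metformin were 42.5% of the genes called on the deposited values, 25.2% with medians centred and 20.7% with quantiles equalised. The members were all lower and all called under each of these scalings.

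**Figure D1:**
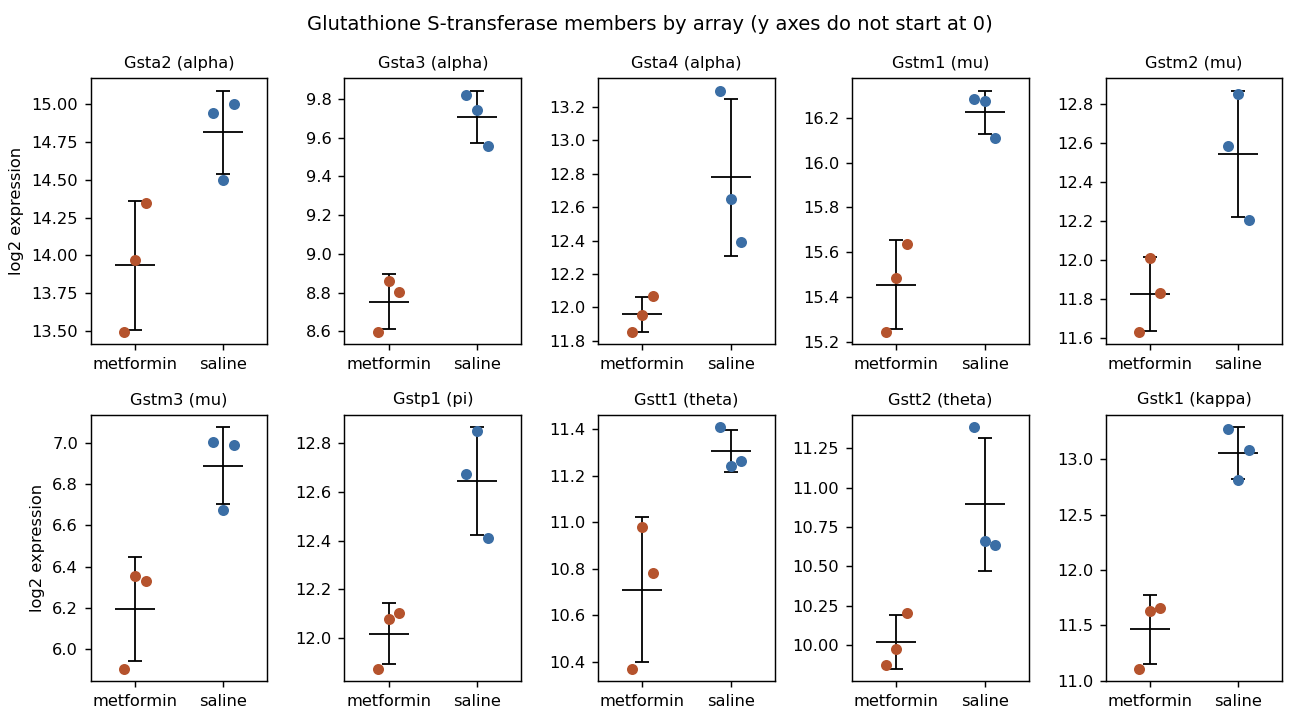
Log2 expression of each member on the 3 metformin arrays (left, brown) and the 3 saline arrays (right, blue), with a panel and y axis per gene, mean and SD. No metformin point reaches a saline point in any panel, and the gap between the groups is 1.16 log2 units in Gstk1 and 0.15 in Gsta2.

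In the kappa class, Gstk1 had the greatest change. Its enzyme sits in mitochondria and peroxisomes and is also known as DsbA-L, a protein that takes part in the assembly of adiponectin. Metformin arrays 1 to 3 gave 11.11, 11.63 and 11.65, and saline arrays 1 to 3 gave 13.28, 12.82 and 13.08. The lowest saline value stood 1.16 log2 units above the highest metformin value. The change was -1.60 ± 0.18 (SE; 95% interval -2.02 to -1.17), a level 3.02-fold lower in metformin (interval 2.25-fold to 4.06-fold; limma adjusted p = 0.00735). With 1 array left out the change ran from -1.72 to -1.42, and the call held in each of the 6 fits.

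Among the alpha class, Gsta2, Gsta3 and Gsta4 had changes between -0.95 and -0.82. Gsta3, which in mouse detoxifies aflatoxin epoxide, gave 8.60, 8.86 and 8.80 on metformin arrays 1 to 3, against 9.82, 9.75 and 9.56 on saline arrays 1 to 3. The groups were tight and far apart: the means were 8.75 ± 0.14 for metformin and 9.71 ± 0.14 for saline (SD, n = 3 each). Gsta3 fell by 0.95 on the log2 scale (SE 0.12, adjusted p = 0.00735), and its call also held in each fit with 1 array left out.

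Gsta2, an alpha-class enzyme that acts on hydroperoxides and bulky electrophiles, gave 13.49, 13.97 and 14.34 on metformin arrays and 14.94, 14.50 and 15.004 on saline arrays. The groups came within 0.15 log2 units of each other, the narrowest gap of the 10. The change was -0.88 ± 0.23 (SE; 1.84-fold lower in metformin, adjusted p = 0.0422). Its call ended without metformin replicate 1 or 2 or saline replicate 1 or 3, with adjusted p up to 0.140. A cluster annotated to both Gsta1 and Gm3776, left out because it has several symbols, moved almost in step with Gsta2. The correlation of their deviations from the group means was 0.99 over the 6 arrays, and the difference of that cluster was -0.85. Probes of these close paralogs can share signal, which was not tested. The promoter windows of Gsta1 and Gsta2 were identical at 80.3% of 289 aligned bases.

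Gsta4, the alpha-class enzyme specialised in 4-hydroxynonenal, a product of lipid peroxidation, gave 11.86, 11.95 and 12.07 on metformin arrays and 13.30, 12.65 and 12.39 on saline arrays. The metformin values lay close together, and the saline values spread over almost a whole log2 unit. The change was -0.82 ± 0.22 (SE; 1.76-fold lower in metformin, adjusted p = 0.0441). The call ended when any array but saline replicate 3 was left out (adjusted p up to 0.131), and when replicate number entered as a block (adjusted p = 0.0535).

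In the mu class the 3 members changed by similar amounts. Gstm1, a broad mu-class conjugating enzyme, gave 15.24, 15.49 and 15.64 on metformin arrays and 16.29, 16.28 and 16.11 on saline arrays. Its saline values exceed 16, the log2 limit of a 16-bit scanner, so the fold change is one of the deposited scale. Gstm1 fell by 0.77 on the log2 scale (SE 0.12, 1.71-fold, adjusted p = 0.0117). Without saline replicate 1 the adjusted p was 0.0528, and the call held with any other array left out.

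Gstm2, whose human counterpart is known in muscle and converts aminochrome, gave 11.63, 12.01 and 11.83 on metformin arrays and 12.58, 12.85 and 12.21 on saline arrays. The gap between the groups was 0.20. The change was -0.72 ± 0.18 (SE, adjusted p = 0.0362), and it was called in 1 of 6 fits with an array left out, the one without saline replicate 3 (adjusted p up to 0.118 in the others). Gstm3 gave 5.90, 6.35 and 6.33 on metformin arrays and 7.0, 6.67 and 6.99 on saline arrays. Metformin replicate 1 and saline replicate 2 were the lowest arrays of their groups. Its change was -0.70 ± 0.16 (SE, adjusted p = 0.0274), with the call ended without metformin replicate 1 or 2 or saline replicate 1 or 3 (adjusted p up to 0.102).

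Gstp1, the pi-class enzyme that also regulates stress kinases by protein contact, gave 11.87, 12.08 and 12.10 on metformin arrays and 12.67, 12.85 and 12.41 on saline arrays. All metformin values fell short of the lowest saline value by at least 0.31. Its change was -0.63 ± 0.13 (SE; 1.54-fold lower in metformin, adjusted p = 0.0247). The call ended without saline replicate 1 or any 1 metformin array (adjusted p up to 0.0890). The window that holds TGAGTCAGC, printed above, was identical to that of its neighbour Gstp2 at 86.2% of 282 aligned bases. The cluster annotated to Gstp2 and the pseudogene Gstp-ps together differed by -0.29, and that of Gstp-ps alone by -0.33. In that order, their deviations from the group means correlated with those of Gstp1 at 0.78 and 0.84. Whether these clusters differ from Gstp1, or share probe signal with it, was not tested.

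Theta-class enzymes act on small halogenated compounds and sulfate esters. Gstt2 gave 9.87, 9.98 and 10.21 on metformin arrays and 11.38, 10.66 and 10.64 on saline arrays, with saline replicate 1 well above the other saline arrays. Its change was -0.87 ± 0.21 (SE, adjusted p = 0.0336). Gstt1 gave 10.37, 10.98 and 10.78 on metformin arrays and 11.41, 11.24 and 11.26 on saline arrays, with the wider spread among the metformin arrays. Gstt1 had the smallest change of the 10, -0.59 ± 0.16 (SE; 1.51-fold lower in metformin, adjusted p = 0.0444). The call of Gstt2 ended without saline replicate 1 or any 1 metformin array (adjusted p up to 0.107). That of Gstt1 ended without any array but metformin replicate 2 (adjusted p up to 0.146) and when replicate number entered as a block (adjusted p = 0.0578).

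**Figure D2:**
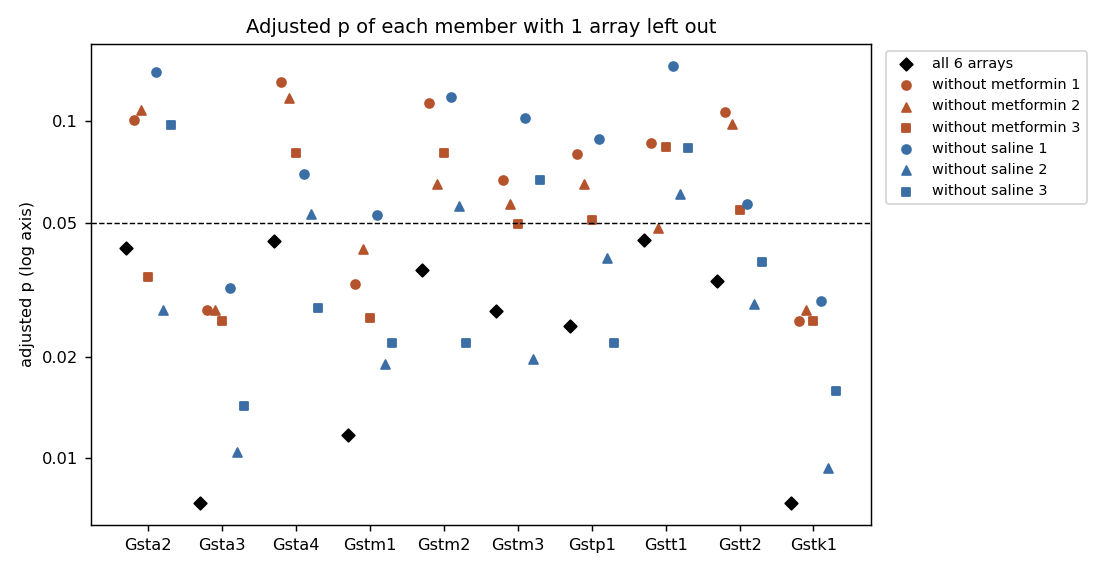
Limma adjusted p (log axis) of each member with all 6 arrays (black) and with 1 array left out (brown for metformin, blue for saline); the dashed line is the threshold of 0.05. Gsta3 and Gstk1 stay under the line in all 6 fits, Gstm1 in 5, and the other 7 members in 1 or 2.

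How many members passed turned on which array was dropped. Dropping metformin replicate 1, 2 or 3 left 3, 4 or 5 members called. Dropping saline replicate 1 left 2, and dropping saline replicate 2 or 3 left 7 in either case. The count over all genes moved as well, to 842 without saline replicate 1, against 3489 with all arrays. All 10 members had a change below 0 in every one of these fits.

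Within the groups the members did not rise and fall as 1 unit. Over the 45 pairs of members, the correlation of deviations from the group means across the 6 arrays had a median of 0.54 and ranged from -0.16 (Gsta2 with Gstm2) to 0.97 (Gstm3 with Gstk1), and 41 pairs lay above 0. The 7 pairs of the same class had a median of 0.43, and the 38 pairs of different classes 0.58. Gsta2, Gstm3 and Gstk1 deviated alike (0.89 to 0.97), Gstm2 deviated with Gstp1 (0.96), and Gsta4 with Gstt2 (0.96). These are descriptions over 6 arrays that share normalization, and the pairs are not independent.

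Other genes of the superfamily and the membrane-bound MAPEG enzymes were then read from the same fit. Of 23 listed, 18 were tested, 5 fell, none rose and 13 did not pass, with a median change of -0.12. The 5 that fell were Gstt3 (-1.41 ± 0.17, SE), Gstz1 (-1.15 ± 0.22), Gstm7 (-1.06 ± 0.14), Gstm4 (-0.80 ± 0.15) and Gstm6 (-0.35 ± 0.09). Gstz1 is the maleylacetoacetate isomerase of tyrosine breakdown. Adjusted p was 0.00735 for Gstt3 and Gstm7, 0.0156 for Gstm4, 0.0183 for Gstz1 and 0.0350 for Gstm6. Gstt3 gave 8.13, 8.51 and 8.78 on metformin arrays and 9.99, 9.83 and 9.82 on saline arrays, a gap of over a log2 unit. The calls of Gstt3 and Gstm7 held with any array left out. That of Gstm4 ended without saline replicate 1 (adjusted p = 0.0652), that of Gstz1 without metformin replicate 2 or saline replicate 1 (up to 0.0773), and that of Gstm6 in each such fit (up to 0.0970).

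The mu genes lie in 1 cluster of the mouse genome, and 6 of the 7 were called lower: Gstm1, Gstm2, Gstm3, Gstm4, Gstm6 and Gstm7. Gstm6 was at a low level, with means of 4.79 on metformin arrays and 5.14 on saline arrays. Whether probes of these related genes share signal was not tested, so the 6 calls may not be separate. The remaining gene of the cluster, Gstm5, gave 10.36, 10.76 and 10.71 on metformin arrays and 10.55, 10.48 and 10.70 on saline arrays. Its groups overlapped and its change was 0.03 ± 0.13 (SE; 95% interval -0.28 to 0.34, adjusted p = 0.896), and -0.06 and -0.02 after median-centring and quantile normalization. The difference between Gstm5 and its neighbours was not itself tested. In the theta locus Gstt1, Gstt2 and Gstt3 fell, and the cluster of Gstt4 lay below the filter.

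The omega-class enzymes Gsto1 (-0.34, adjusted p = 0.0976) and Gsto2 (-0.23, 0.176) did not pass. Gsto1 passed after quantile normalization (-0.53, adjusted p = 0.0243). The microsomal enzymes Mgst1 (-0.08), Mgst2 (0.04) and Mgst3 (-0.20) did not pass either, at adjusted p = 0.721, 0.793 and 0.390. Prostaglandin E synthases Ptges (-0.05) and Ptges2 (-0.15), leukotriene C4 synthase Ltc4s (-0.01), Gstcd (0.15) and the pi-class Gstp3 (0.16) had adjusted p between 0.301 and 0.969. The values of Mgst2 and Gstcd turned below 0 after quantile normalization. Some of these genes lay near the filter of 4.03. Means on metformin and saline arrays were 4.13 and 3.97 for Gstp3, 4.03 and 4.26 for Gsto2, and 4.50 and 4.46 for Mgst2. At such levels a change could be missed, and these genes enter the list median of -0.12. Alox5ap, which presents arachidonate for leukotriene synthesis in leukocytes, had a change of 0.65 ± 0.32 (SE, adjusted p = 0.204), and the prostaglandin D synthase Hpgds, a sigma-class transferase, 0.52 ± 0.24 (adjusted p = 0.186). Both passed without saline replicate 2, at adjusted p = 0.0151 and 0.0495. The summed log2 level of 6 macrophage markers was 51.4 to 53.9 on metformin arrays and 46.5 to 53.9 on saline arrays, highest among saline arrays on replicate 2. Its part in these values was not tested.

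**Figure D3:**
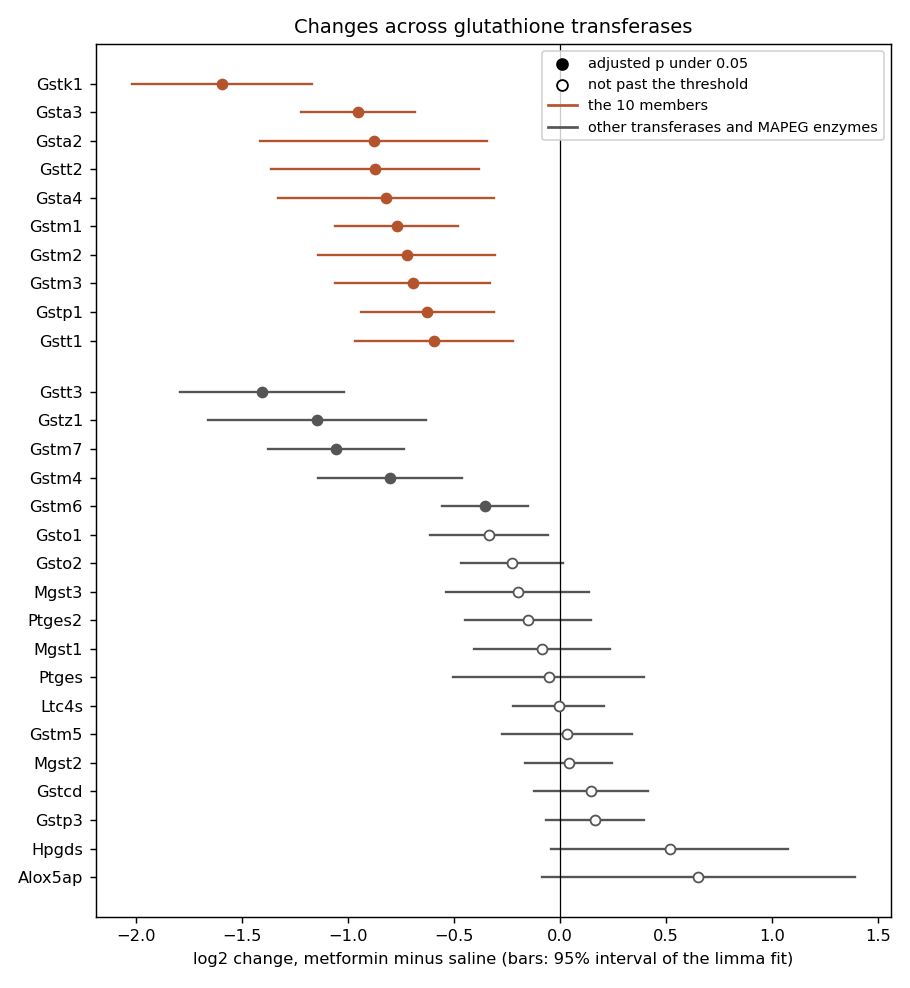
Log2 change (metformin minus saline) with its 95% interval for the 10 members (brown, upper block) and 18 other transferases and MAPEG enzymes (grey, lower block), each ordered by change. Filled points passed the adjusted threshold: all 10 members and 5 of the others, from Gstt3 at -1.41 to Gstm6 at -0.35.

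Genes around the transferases in glutathione metabolism were read next, 86 tested over 6 lists, of which 22 fell and none rose. Of 10 genes of glutathione synthesis and cysteine supply, 5 fell, with a list median of -0.72. These were Cth and Cbs, which make cysteine from homocysteine (-1.11 each), the cystine carrier subunits Slc7a9 (-1.11) and Slc3a1 (-0.63), and Ahcy, which releases homocysteine (-0.98). Adjusted p ran from 0.0185 for Slc7a9 to 0.0366 for Ahcy. The values of Slc3a1, like those of Gstm1 in saline, exceed 16, the log2 limit of a 16-bit scanner. All 5 calls ended without saline replicate 1 (adjusted p up to 0.117), and each also ended without at least 1 other array. Gclc, the catalytic subunit of the rate-limiting ligase, had a change of -0.56 (adjusted p = 0.245), and its groups overlapped: 14.12, 14.12 and 14.52 on metformin arrays and 14.29, 14.62 and 15.52 on saline arrays. Gclc was lower in metformin in all 3 pairs of replicate numbers, with adjusted p = 0.0728 under the replicate block.

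Of 23 genes of glutathione breakdown and mercapturate formation, 4 fell, with a median of -0.48. They were the leucine aminopeptidase Lap3 (-1.33 ± 0.16, SE, adjusted p = 0.00735), the cyclotransferase Ggct (-0.75, adjusted p = 0.0342), and Nat8f2 (-1.31) and Nat8f4 (-0.74), of the N-acetyltransferase family 8 (adjusted p = 0.0246 and 0.0168). The other 6 genes of the Nat8 family lay below 0 without passing. Under the replicate block 10 of the 23 genes were called, all lower, where 19.8% of all genes were called. The call of Lap3 held with any array left out, and those of the other 3 each ended without metformin replicate 1 or 2 (adjusted p up to 0.101). Those of Ggct and Nat8f4 also ended without saline replicate 1, and that of Ggct without metformin replicate 3 or saline replicate 3.

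Among 16 glutathione peroxidases, glutaredoxins and glyoxalase genes, 6 fell (median -0.43). Gpx1, the widely expressed cytosolic glutathione peroxidase, gave 16.23, 16.40 and 16.39 on metformin arrays and 17.53, 17.25 and 17.20 on saline arrays. Its change was -0.98 ± 0.12 (SE, adjusted p = 0.00735), and its call held with any array left out. Its values too exceed 16. Gpx6 had -1.85 ± 0.40 (adjusted p = 0.0250), the glutaredoxin Glrx -0.78 (0.0385), the formaldehyde-clearing Adh5 -0.58 (0.0325), the protein disulfide reductase Txndc12 -0.57 (0.0281) and the glyoxalase Glo1 -0.48 (0.0290). These 5 calls each ended without metformin replicate 2, saline replicate 1 or saline replicate 3, with adjusted p up to 0.0994. All of them but that of Gpx6 also ended without metformin replicate 1 or 3, and that of Glrx without saline replicate 2. Of 7 exporters, the ABC transporter Abcg2 fell (-0.95 ± 0.17, SE, adjusted p = 0.0151, and 0.0656 without saline replicate 1). Under the replicate block Abcg2 and Abcc2 (-0.39, adjusted p = 0.0403, against 0.201 in the main fit) were called. Abcc5 (0.51, adjusted p = 0.0944) and Abcc1 (0.31, 0.137) lay above 0, and passed without saline replicate 2 (adjusted p = 0.0199 and 0.0489).

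Of 20 NRF2 targets outside the transferases, 5 fell and none rose, with a median of -0.32. The quinone reductase Nqo1, a standard readout of NRF2, gave 8.74, 9.27 and 9.02 on metformin arrays and 10.40, 10.22 and 10.21 on saline arrays. Nqo1 fell by 1.26 on the log2 scale (SE 0.15, 2.40-fold, adjusted p = 0.00735), and its call held with any array left out, as did that of malic enzyme Me1 (-0.99, adjusted p = 0.00994). Osgin1 (-0.85, adjusted p = 0.0198), carbonyl reductase Cbr1 (-0.81, 0.0466) and thioredoxin Txn1 (-0.33, 0.0441) also passed. Each lost its call without metformin replicate 1 or 2 or saline replicate 1 (adjusted p up to 0.0652, 0.141 and 0.129). Cbr1 and Txn1 also lost it without metformin replicate 3 or saline replicate 3, and Txn1 without saline replicate 2. Cbr1 did not pass under the replicate block (adjusted p = 0.0744), without the low filter (0.0550) or with eBayes trend and robust options (0.0519), and Txn1 did not with the last of these (0.0718). Heme oxygenase Hmox1, also a target, had a change of 0.24 (adjusted p = 0.274). Hmox1 was higher in metformin in every pair of replicate numbers, with adjusted p = 0.0982 under the replicate block.

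Of 13 transcription regulators known to act on transferase genes, 1 fell, the fatty acid receptor Ppara (-1.05 ± 0.24, SE, adjusted p = 0.0312). It did not pass without metformin replicate 3, saline replicate 1 or saline replicate 3 (up to 0.102). The proximal tubule factor Hnf4a, also one of the proximal markers used further on, had -0.51 (adjusted p = 0.0689) and the xenobiotic receptor Nr1i2 -0.42 (0.0688, and 0.0311 when replicate number entered as a block). Nr1i2 also passed after median-centring (adjusted p = 0.0455) and quantile normalization (0.0282). Nfe2l2, which encodes NRF2, gave 11.33, 10.87 and 10.62 on metformin arrays and 11.58, 11.34 and 10.77 on saline arrays. Its groups overlapped (change -0.29, adjusted p = 0.467). It was lower in metformin in all 3 pairs of replicate numbers, with adjusted p = 0.0959 under the replicate block. Keap1, the adaptor that leads NRF2 to degradation, had -0.24 (adjusted p = 0.116). Keap1 was lower in metformin in every pair too, with adjusted p = 0.101 under the block, and it passed after quantile normalization.

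**Figure D4:**
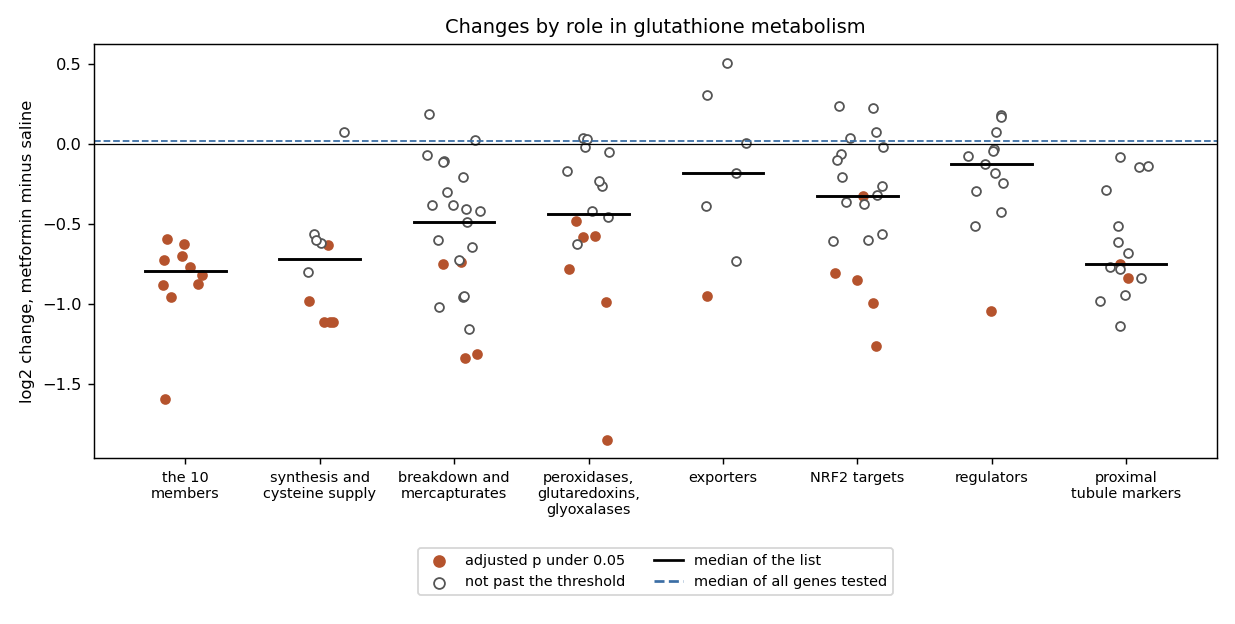
Log2 change (metformin minus saline) of every tested gene, by role; filled points passed the adjusted threshold, black bars are list medians and the dashed line is the median of all genes, 0.02. The median is -0.79 for the 10 members, -0.72 for synthesis and cysteine supply, -0.75 for proximal tubule markers and -0.13 for the regulators, and no filled point lies above 0.

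Since alpha-class transferases mark the proximal tubule, the members were set beside 15 markers of that segment. All 15 lay below 0, with a median change of -0.75, and 2 fell, the transporters Slc5a12 and Slc22a8. Under the replicate block 8 of the 15 were called, all lower. Neither Slc5a12 nor Slc22a8 passed without metformin replicate 1 or 2 or saline replicate 1 or 3 (adjusted p up to 0.0803 and 0.112). The lowest of the 15 was Slc7a13, with means of 5.18 on metformin arrays and 5.25 on saline arrays, above the filter of 4.03. Several of the 15, among them Slc34a1, Slc27a2 and Slc22a8, have values above 16, the log2 limit of a 16-bit scanner. The summed log2 level of the 15 was 204.7, 211.9 and 215.1 on metformin arrays 1 to 3, against 219.1, 216.8 and 224.2 on saline arrays 1 to 3. The groups did not overlap, as with the members, whose sums were 109.9, 113.3 and 113.8 for metformin and 122.7, 120.3 and 119.7 for saline. Within saline, replicate 3 was highest in the markers and lowest in the members.

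With the mean of the 15 markers subtracted on each array, a description chosen after seeing the data, 8 of the 10 members had overlapping groups. The share of all genes with overlapping groups after this subtraction was not computed. The mean of the 10 members was then -2.65, -2.80 and -2.96 on metformin arrays and -2.34, -2.43 and -2.98 on saline arrays. The overlap of this mean rests on saline replicate 3, the lowest array. Gstk1 kept a difference of -0.96, with group means of -2.57 ± 0.10 for metformin and -1.61 ± 0.27 for saline (SD, n = 3 each) and no overlap. Gsta2 had a difference of -0.25 without overlap, at -0.16, -0.16 and 0.01 on metformin arrays and 0.34, 0.04 and 0.06 on saline arrays. For the other 8 the difference ran from -0.32 in Gsta3 to 0.04 in Gstt1, and with 1 array left out the sign depended on the array left out in 6 of these 8 (Gsta4, Gstm2, Gstm3, Gstp1, Gstt1 and Gstt2). Gsta3 was lower in metformin in all 3 pairs of replicate numbers, at -5.05, -5.27 and -5.53 on metformin arrays and -4.78, -4.71 and -5.39 on saline arrays. No test was made of these values. The part of proximal tubule content in the members' values was not tested.

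**Figure D5:**
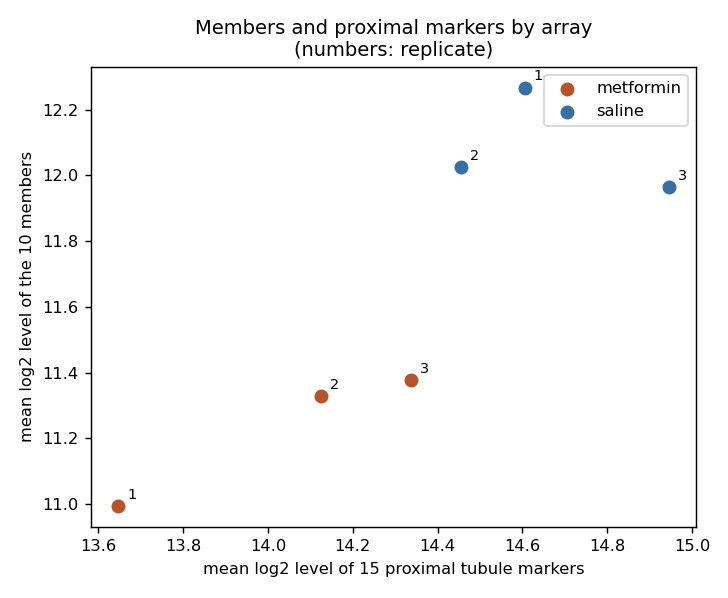
Mean log2 level of the 10 members (y) against that of 15 proximal tubule markers (x) on each array, brown for metformin and blue for saline, numbered by replicate. Metformin arrays lie lower on both axes; among saline arrays replicate 3 is highest in the markers at 14.94 and lowest in the members at 11.97.

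Markers of other cells were read from the same fit. None of the markers of thick limb (5 tested), distal convoluted tubule (5), podocytes (4), endothelium (6) or macrophages (6) passed limma's adjusted threshold. Of them 2, 2, 0, 3 and 1, in that order, had an unadjusted p under 0.05. Under the replicate block 1 distal convoluted tubule and 1 macrophage marker were called. All 5 thick limb markers lay below 0. Their summed log2 levels did not overlap (74.5 to 76.6 for metformin and 76.7 to 77.5 for saline). All 6 macrophage markers lay above 0, with overlapping sums. The sums of distal convoluted tubule, podocyte and endothelial markers overlapped too. Of 7 principal cell markers 3 fell, Aqp3, Aqp4 and Avpr2, and the summed log2 level of the 7 did not overlap (81.4 to 83.3 for metformin and 84.4 to 88.2 for saline). Of 6 intercalated cell markers 3 fell, Atp6v0d2, Slc4a1 and Slc26a4, again without overlap of the sums (66.5 to 68.0 for metformin and 68.7 to 71.8 for saline). Slc26a4 did not pass under the replicate block (adjusted p = 0.0665). Of 5 adipocyte markers Adipoq fell (adjusted p = 0.0472), and 3 were called lower under the block. Their sums were 27.7 to 28.2 for metformin and 29.5 to 38.2 for saline. Of 6 fibroblast markers the collagen gene Col1a1 passed as higher (1.65, adjusted p = 0.0404), Dcn (-0.58) and Lum (-0.52) lay below 0 without passing, and the sums overlapped. Under the block 3 fibroblast markers were called higher and 1 lower. Of 8 markers of injured tubule none passed and all lay above 0, with overlapping sums (78.3 to 89.3 for metformin and 70.4 to 81.9 for saline), 5 had an unadjusted p under 0.05, and 5 were called higher under the block. The calls of Aqp4 and Atp6v0d2 held with any array left out. Those of the other principal cell, intercalated cell, adipocyte and fibroblast markers named as passing each ended without metformin replicate 1 or saline replicate 1, among others (adjusted p up to 0.145). The part of these cells in the members' values was not tested.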

How the data were processed

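The authors deposited log2 expression values, 1 for each array and transcript cluster. The submitters' processing notes name RMA, which corrects background, normalizes between arrays and summarises probes, and Transcriptome Analysis Console 4.0. The sources used here do not state the RMA variant, probe definition or genome build. Of 65956 transcript clusters, 30604 have 1 gene symbol in the platform annotation, 2146 have several and 33206 stay unnamed here. Clusters in the lowest 33.3% by mean level were dropped (mean up to 4.03), and the cluster with the highest mean was kept for each gene. The 22086 genes left were tested in R 4.3.3 by limma's lmFit and eBayes (version 3.58.1), metformin minus saline, two-sided, without covariates. Benjamini-Hochberg adjustment ran over all these genes with a threshold of 0.05, and the procedure was tested on simulated data. A microarray gives no read depth, and the 3 arrays per group limit the precision.

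The members and gene lists were chosen with earlier results of these data known. Named are all members, all measured genes of the list of other transferases, and from each pathway list the 3 smallest p-values and every gene past the threshold. Gclc, Hmox1, Nfe2l2 and Keap1 are named outside this rule for their known role. Abcc2 is also outside it, named after it was called under the replicate block. Other pathway genes that gained a call under the block are not named. Same-numbered arrays of the groups had deviations from their group means that correlated, across genes, at 0.12, 0.15 and 0.54 for numbers 1, 2 and 3. By the criterion used, that each value exceeds 0.1, the numbers were taken to pair the samples. The pairing enters only the replicate block and the statements on pairs of replicate numbers, and the main fit ignores it. The pairing is inferred from the data alone: metformin 1 with saline 2 reached 0.30, and the labels do not say what a number shares. Alternatives were the replicate number as a block, each array left out, median-centring, quantile normalization, other filters, means over a gene's clusters, eBayes with trend and robust options, and array weights. Promoter windows are RefSeq's on GRCm38.p6, searched on both strands in Python 3.11.15 and compared between paralogs by global alignment in Biopython 1.88.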

Additional observations from a re-analysis of the deposited data

How the results depend on the processing

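With each array left out in turn, the number of genes called ran from 842 to 3965, against 3489 as reported. The members called ran from 2 to 7, the other transferases called from 2 to 6, and the pathway genes called from 5 to 30, against 10, 5 and 22. Quantile normalization called 37 pathway genes. That scaling moved the median change of all genes to -0.10, against 0.02 as deposited, so changes of uncalled genes are relative to it: Gstm5 was -0.015 (-0.058 after median-centring), Mgst2 -0.036 (-0.050 after median-centring), and Gstcd -0.065. Ltc4s was 0.0051 with array weights. With 1 array left out Gstm5 ran from -0.044 to 0.16, Mgst1 from -0.19 to 0.034, Ltc4s from -0.062 to 0.028 and Ptges from -0.27 to 0.092. The replicate block called 8 members, 5 other transferases and 32 pathway genes (4373 genes in all). Among the members, other transferases and named pathway genes, it changed the calls of Gsta4, Gstt1, Cbr1, Nr1i2 and Abcc2. Among named markers it ended that of Slc26a4. The block called 8 of 15 proximal markers and 5 of 8 injury markers, against 2 and 0. Leaving out no low clusters, or using trend and robust options, also called 8 members, without Gsta4 and Gstt1; both settings ended the calls of Cbr1 and Slc26a4, the second that of Txn1 and the first that of Adipoq. Median-centring ended that of Col1a1. With the other alternatives all 10 members were called. Each member's change stayed below 0 in all these fits; after subtraction of the proximal markers, an alternative chosen after seeing the data, Gstp1 and Gstt1 did not (differences of 0.0058 and 0.037). With 3 arrays per group and adjusted p close to the threshold for 7 members, a miss in a fit with fewer arrays does not show that a gene was unchanged.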

Other observations

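Gstm1 was the member with the highest mean level, and the 3 genes whose deviations from the group means were most like it over the 6 arrays were Loxl4, a lysyl oxidase of the matrix (r = 0.99), the pseudogene Ang-ps3 (r = 0.99) and Gm13470 (r = 0.99). Among the other genes tested, 30 had r above 0.95. With 6 arrays and 22086 genes, r of this size can arise by chance, and none was tested. Nearest among the members was Gsta3 (r = 0.83). The cluster annotated to Gsta1 and Gm3776 gave 12.92, 13.30 and 13.74 on metformin arrays and 14.25, 13.89 and 14.37 on saline arrays. The cluster of Gstp2 with Gstp-ps gave 9.20, 9.46 and 9.47 on metformin arrays and 9.67, 9.73 and 9.61 on saline arrays. Neither pair of groups overlapped, and neither cluster was tested.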
